A study of Mus musculus with 36 samples.

Results

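Livers of C57BL6/J mice kept at 30 °C were compared with livers of mice of the same strain kept at 22 °C, both at the 0 h point of a time course after injection of lipopolysaccharide (LPS), the bacterial cell-wall product used to set off systemic inflammation. The comparison holds 9 of the 36 libraries of the study, 5 at 30 °C and 4 at 22 °C, chosen by their labelled temperature and time alone. The other 27 were taken 4, 12 and 24 h after LPS at the same temperatures. RNA was read with CEL-Seq2, a 3′-end barcoding method made for single cells and here used on bulk liver RNA. The value given for each gene is the deposited signal, scaled reads per base, and a difference is one of log2(signal + 1), 30 °C minus 22 °C. Of 34829 listed genes, 8702 passed a filter on low values, a mean of 5 or more over the 36 libraries, and were tested. Sex, age, the length of housing at each temperature, the LPS dose and what the 0 h animals were given are not stated in the sources used here, and no label pairs or pools animals. P-values therefore measure the spread between libraries of the same group, pooled over all 36 libraries, which may in part be technical.

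A mouse at 22 °C is below its thermoneutral zone and spends energy on heat production, whereas 30 °C lies close to thermoneutrality. The liver takes part in that balance through glucose output, ketone synthesis and lipoprotein secretion. It also makes cholesterol by the mevalonate pathway, whose enzyme genes are switched on by the sterol-sensing factor SREBP2, and it secretes the major urinary proteins, small pheromone-binding lipocalins whose genes respond to growth hormone, thyroid hormone and glucocorticoids.

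At 0 h, 44 genes differed at an adjusted p below 0.05 in limma with Benjamini-Hochberg adjustment, which is 0.506% of the genes tested. Of these, 36 were lower at 30 °C, or 0.414%, and 8 were higher, or 0.0919%. The lower genes held 10 major urinary protein (Mup) genes, 4 enzymes of cholesterol synthesis and 4 female-biased liver genes, and the higher genes included Soat2, Serpina7 and Gadd45g. In 37 of the 44 genes every library of one temperature lay above every library of the other, 31 lower and 6 higher at 30 °C. Over all tested genes such separation was seen for 1.71% in the lower and 1.44% in the higher direction. The 44 were picked on their difference in these same libraries, so their separation is largely given by the choice. The median difference of all tested genes was 0.01. Of the 8702 genes, 861 had an unadjusted p below 0.05, which is the background for such counts in the gene lists below. Fitted on the 9 libraries alone, without the spread shared from the later times, limma called 13 genes, 12 of them among the 44, and 7 of those 13 were tested Mup genes.

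**Figure D1:**
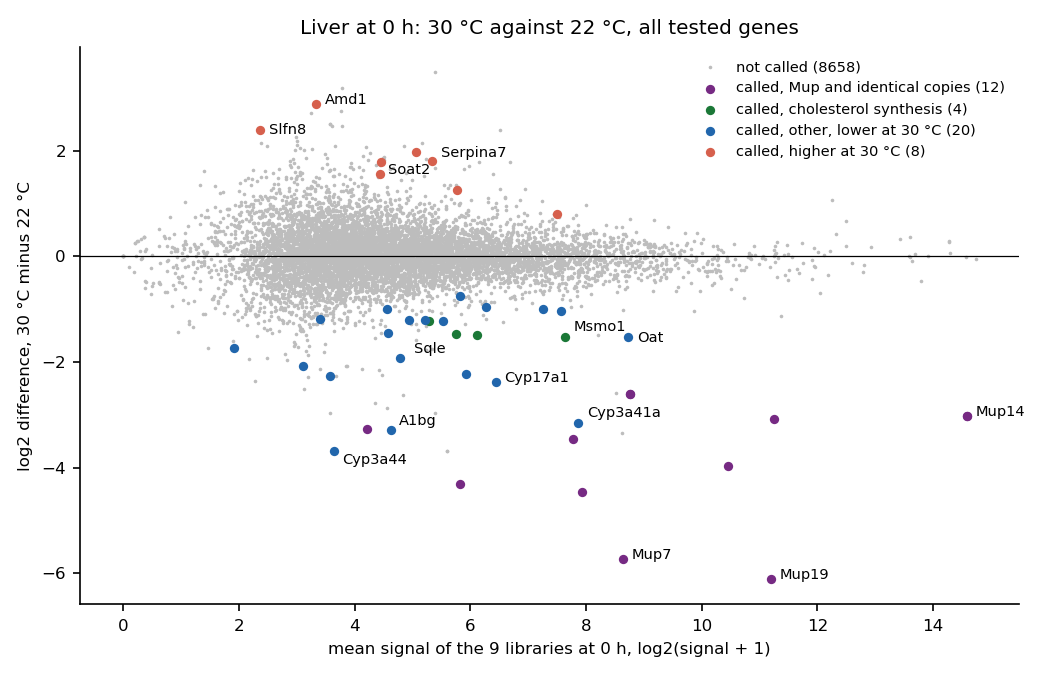
All 8702 tested genes at 0 h, with the mean signal of the 9 libraries on a log2(signal + 1) axis against the log2 difference, 30 °C minus 22 °C. The 44 genes with adjusted p below 0.05 are coloured by group. The Mup genes reach the largest differences, down to -6.10 for Mup19, and the 8 higher genes lie between 0.81 and 2.89.

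Reads per library, estimated from the worth of 1 read in the signal, ran from 717000 to 985000 at 22 °C and from 557000 to 830000 at 30 °C, so that 3 reads were worth 3.31 to 4.25 and 3.45 to 5.05 signal units. The 30 °C replicate 3 library had the fewest reads and stood apart, with Pearson correlations of 0.822 to 0.852 to the other 8 libraries against 0.878 to 0.904 among those 8. Without it 44 genes were called again, 38 of them in common. The hepatocyte markers were all present, and of 31 tested members of the marker lists for liver and blood cells limma called none, with 4 at an unadjusted p below 0.05. The summed signal of the 6 stellate cell markers was 518 to 611 at 22 °C and 601 to 842 at 30 °C, and that of the 4 pancreatic acinar markers, none of which passed the filter, was 3.37 to 82.3 and 1.15 to 10.0. Mitochondrially encoded transcripts took 13.0 to 15.2% of the signal at 22 °C and 15.1 to 18.1% at 30 °C, and the part of these shifts in the results was not tested. In bulk liver, fewer cells of a type and less RNA per cell cannot be told apart.

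The promoters of genes that the results turn on are shown first, as the 250 bases before the RefSeq start site (GRCm38.p6), because the cholesterol synthesis genes are a textbook case of a shared control sequence. Capitals mark the CCAAT box, searched as CCAAT on both strands, and, in Hmgcs1, the sterol response element, searched as TCACNCCAC on both strands. The set holds the called genes with an entry, Msmo1, Cyp51 and Idi1, and Hmgcs1, which was not called, as the single list member with a sterol element match. The windows are Msmo1 chr8:64733579-64733828, minus strand; Cyp51 chr5:4104698-4104947, minus strand; Idi1 chr13:8885356-8885605, plus strand; and Hmgcs1 chr13:119690101-119690350, plus strand.
Msmo1: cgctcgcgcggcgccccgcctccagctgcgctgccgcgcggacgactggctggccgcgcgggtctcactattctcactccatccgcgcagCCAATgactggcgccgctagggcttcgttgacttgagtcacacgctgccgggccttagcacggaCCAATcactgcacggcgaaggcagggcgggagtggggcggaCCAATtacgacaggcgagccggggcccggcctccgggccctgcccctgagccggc
Cyp51: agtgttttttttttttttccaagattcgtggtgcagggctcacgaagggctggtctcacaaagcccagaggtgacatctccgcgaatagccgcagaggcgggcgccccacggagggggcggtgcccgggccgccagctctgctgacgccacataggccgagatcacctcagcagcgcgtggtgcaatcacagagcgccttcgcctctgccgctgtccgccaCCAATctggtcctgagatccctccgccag
Idi1: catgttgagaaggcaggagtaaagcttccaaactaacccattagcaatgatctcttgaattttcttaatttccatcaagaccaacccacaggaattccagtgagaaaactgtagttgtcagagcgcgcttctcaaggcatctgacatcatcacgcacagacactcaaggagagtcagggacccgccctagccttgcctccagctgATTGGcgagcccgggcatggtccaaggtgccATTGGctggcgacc
Hmgcs1: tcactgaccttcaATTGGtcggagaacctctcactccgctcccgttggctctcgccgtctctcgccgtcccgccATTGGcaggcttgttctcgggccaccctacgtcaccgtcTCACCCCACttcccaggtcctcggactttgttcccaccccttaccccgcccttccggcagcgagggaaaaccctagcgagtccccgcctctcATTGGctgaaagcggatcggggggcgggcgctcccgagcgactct

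Of the 22 cholesterol synthesis genes tested, 16 had an entry, and 15 of these held a CCAAT match in the window, against 37.49% of the 27025 gene symbols in the table. The sterol element match stood in 1 of the 16, against 1.22% of symbols. A match describes letters in the window and is not a measured binding site.

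The Mup promoters are shown to let a reader see how alike the copies are. Capitals mark TATATAA, letters typical of the core promoter element of that name, searched on both strands and found in 8 of the 12 tested Mup genes with an entry and in 3.6% of all symbols. Mup14 and Mup17 were called and Mup3 was not. The windows are Mup14 chr4:61303999-61304248, minus strand; Mup17 chr4:61595833-61596082, minus strand; and Mup3 chr4:62087318-62087567, minus strand. No TATATAA lies in the window before the annotated Mup14 start.
Mup14: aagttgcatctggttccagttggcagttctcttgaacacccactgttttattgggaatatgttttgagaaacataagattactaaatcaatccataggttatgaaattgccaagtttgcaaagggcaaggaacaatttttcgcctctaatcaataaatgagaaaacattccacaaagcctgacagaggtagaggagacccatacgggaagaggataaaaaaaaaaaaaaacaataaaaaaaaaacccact
Mup17: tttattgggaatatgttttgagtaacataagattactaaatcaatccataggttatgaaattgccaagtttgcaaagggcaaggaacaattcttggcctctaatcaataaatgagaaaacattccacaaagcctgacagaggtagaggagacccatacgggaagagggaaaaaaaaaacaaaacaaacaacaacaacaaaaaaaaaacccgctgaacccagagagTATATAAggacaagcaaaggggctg
Mup3: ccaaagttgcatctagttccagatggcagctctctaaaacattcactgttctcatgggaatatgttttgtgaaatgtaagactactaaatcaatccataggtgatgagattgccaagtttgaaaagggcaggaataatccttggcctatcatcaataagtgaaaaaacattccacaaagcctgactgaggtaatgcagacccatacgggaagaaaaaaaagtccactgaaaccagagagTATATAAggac

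Aligned with free ends, the windows of 7 called Mup genes were 88.5 to 98.7% identical to each other in 21 pairs over 115 to 251 columns. The same genes were 74.5 to 84.1% identical to Mup3. Likeness did not follow the call throughout: Mup15 and Mup9, not called, were each 98.4% identical to Mup17. Their differences still lay below 0, at -3.68 and -1.78, with overlapping libraries (limma adjusted p = 0.319 and 0.522). Mup4, also not called, was 79.2% identical to Mup17 and differed by 0.20. Mup-ps16, a pseudogene, was left out of these figures.

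The Mup genes had the lowest median difference of the 29 gene lists. The 19 tested members lie on chromosome 4 between positions 59956804 and 62087342 of GRCm38. Of them limma called 10 lower, with a median difference over the 19 of -3.08. In 12 of the 19 the libraries did not overlap, and 18 of the 19 lay below 0. Among all tested genes the shares called lower and separated downwards were 0.414% and 1.71%. Many members share much of their transcript ends, so these counts are not of separate observations. The whole family, with identical entries counted once, took 8.38, 9.19, 6.21 and 4.21% of the summed signal in the 22 °C libraries and 1.08, 1.70, 1.56, 0.93 and 0.88% in the 30 °C libraries. That is 7.00% ± 2.24 (SD, n = 4) against 1.23% ± 0.38 (SD, n = 5), with no overlap. The signal left without the family was 892568 to 941016 units at 22 °C and 887412 to 936743 at 30 °C, which overlap.

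Mup14 carried most of the family's signal at 22 °C but not in every 30 °C library, with 3374 of 8166 units in replicate 5. Its level was 57610, 61233, 41546 and 30685 at 22 °C and 5854, 10564, 7088, 4095 and 3374 at 30 °C. All 30 °C libraries lay far below the lowest 22 °C library. The ratio of means was 7.71, and the log2 difference was -3.01 ± 0.36 (SE; limma adjusted p = 5.42e-06).

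Mup11 stood at 4809.7, 7001, 4395 and 2768 at 22 °C and at 485, 686, 1029, 379.7 and 323 at 30 °C. Mup17 read 3396, 5069, 2376 and 978 against 184, 261, 203, 131 and 83.6. Mup16 read 844, 893, 804 and 638 against 158, 200.5, 197, 73.1 and 75.0. In each of the 3 genes the 22 °C replicate 4 library was the lowest of its group, yet above every 30 °C library, and limma gave differences of -3.08, -3.96 and -2.61 with adjusted p of 6.78e-06, 5.42e-06 and 1.73e-05.

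Mup19 read 5775, 9282, 4273 and 1108 against 188, 241, 163, 87.8 and 0. It was listed at 0 in the 30 °C replicate 5 library, and this single value weighed on the fit: the log2 difference of -6.10 ± 0.93 (SE; limma adjusted p = 0.000223), the largest with all libraries, became -4.64 without that library, smaller in size than that of Mup7 there. Mup7 read 1261, 1393, 635 and 187 against 25.8, 10.7, 80.4, 0 and 12.7, with a difference of -5.72 ± 1.07 (SE; limma adjusted p = 0.00358) that became -4.80 without the 30 °C replicate 4 library. Mup18 read 596, 749, 431 and 218 against 0, 65.6, 40.3, 56.2 and 22.7, with a difference of -4.46 ± 0.86 (SE; limma adjusted p = 0.00445) that became -3.37 without the 30 °C replicate 1 library. The zeros fell in a different 30 °C library for each of these 3 genes, replicates 5, 4 and 1, while other copies kept signal there.

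Mup10, Mup1 and the pseudogene Mup-ps16 were lower as well. Mup10 ranged from 283 to 675 at 22 °C and from 22.0 to 68.4 at 30 °C, Mup1 from 42.5 to 203 and from 1.72 to 11.4, and Mup-ps16 from 26.9 to 43.9 and from 0 to 8.87. Their differences were -3.46, -4.30 and -3.26, with limma adjusted p of 0.00103, 0.00169 and 0.00169. All 10 called Mup genes kept their call without each of the 9 libraries in turn. In the fit of the 9 libraries alone, Mup19, Mup18, Mup7 and Mup-ps16 lost it, at limma adjusted p of 0.209, 0.209, 0.0784 and 0.0757.

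Mup3 and Mup20 did not pass the test. Mup3 read 4139.8, 4239, 2939 and 2779.98 at 22 °C and 2470.5, 2911, 3945, 2746 and 2819.9 at 30 °C, with a difference of -0.24 ± 0.23 (SE; limma adjusted p = 0.817). Mup20, which encodes the male pheromone darcin, read 788, 956, 627 and 881 against 613, 501, 772, 494 and 1294, a difference of -0.23 ± 0.23 (SE; limma adjusted p = 0.823). The libraries of the 2 temperatures overlapped in both genes. Mup5 and Mup12 were separated, at 51.2 to 95.6 against 0 to 31 and at 464 to 922 against 20.2 to 209, but missed the threshold with adjusted p of 0.144 and 0.16. Mup15, Mup9, Mup22, Mup8 and Mup4 varied widely within a temperature and were not called.

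**Figure D2:**
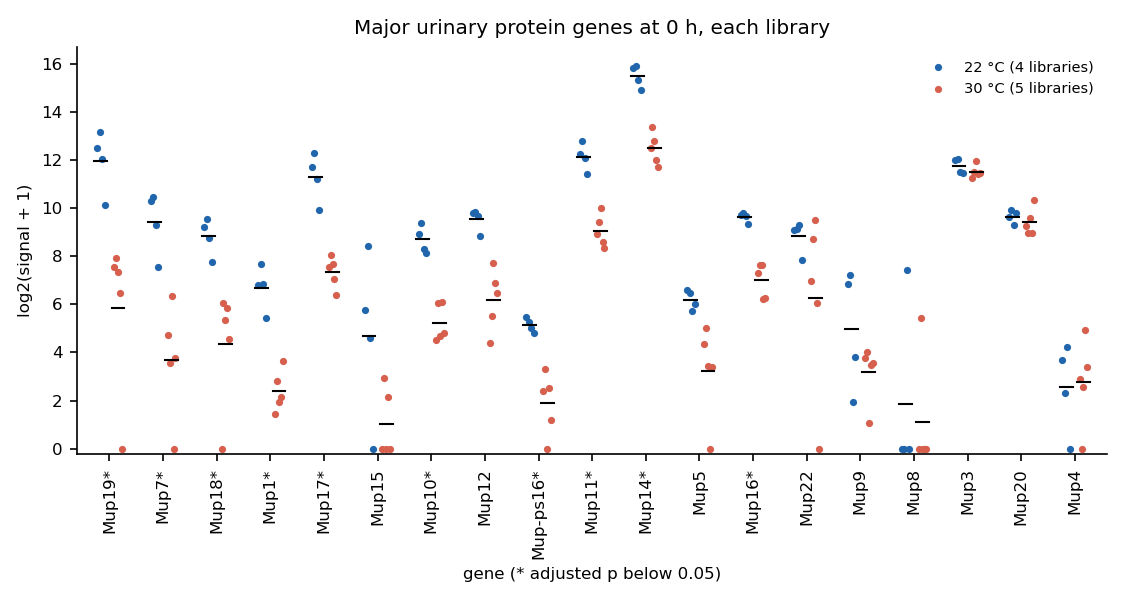
The 19 tested Mup genes at 0 h, 1 point per library on a log2(signal + 1) axis, with the group mean as a bar and 22 °C in blue beside 30 °C in red. The 10 genes marked with an asterisk had adjusted p below 0.05, and Mup3 and Mup20 show overlapping libraries near the top of the scale.

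The split of reads among the copies is uncertain. In the last 500 bases of annotated transcripts, 90.0% of the 31-base stretches of Mup14, 100% of those of Mup19 and 73.6% of those of Mup17 also occur in another gene, against 33.0% for Mup3 and 55.3% for Mup20. Unnamed entries ENSMUSG00000106700 and ENSMUSG00000106882 held the same values as Mup14 and Mup16 in every library and are among the 36 lower genes, which leaves 34 when such copies count once. The summed share of the family adds up the named Mup entries. Left out of it were 11 unnamed entries with values identical to a named one. If reads were divided between such copies, the share would be larger at both temperatures, and this was not tested.

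Genes with sex-biased expression in liver were followed because Mup genes are male-biased in mice. Sex is not among the labels. Of the Y-linked genes, Eif2s3y was at most 0.58 in every 0 h library, while Ddx3y read 0 to 6.02 at 22 °C and 0 to 12.8 at 30 °C and Kdm5d 0 to 4.74 and 1.18 to 6.41. The female-predominant genes Cyp2b9, Cyp2b13 and Cyp2a4 were present at both temperatures, with a summed signal of 494 to 566 at 22 °C and 275 to 624 at 30 °C. Of 12 other male-biased genes tested, limma called none, and 6 had an unadjusted p below 0.05, against 861 of all 8702. Their median difference was -0.41, between -0.82 and 0.0046 without single libraries. Of the 12, 10 lay below 0 and 2 above. The 2 above, Gstp1 and Cyp2u1, were separated upwards, at 0.80 and 0.95 (limma adjusted p = 0.11 and 0.47). Cyp2f2 was separated downwards, at -0.75 (limma adjusted p = 0.356). Over all tested genes 1.44% were separated upwards and 1.71% downwards. Cyp4a12a, a male-predominant P450, was at or near the 3-read level throughout. It read at most 3.70 at 22 °C and was listed at 0 in all 5 libraries at 30 °C.

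Among 24 female-biased genes tested, limma called 4 lower at 30 °C, where 0.414% of all tested genes were, and none higher. Their median was -0.39, with 18 below 0 and 6 above. Acot3 was separated upwards, at 0.78, and Hao2 lay at 1.29 with overlapping libraries. Neither was called (limma adjusted p = 0.522 and 0.331). Cyp17a1, the hydroxylase and lyase on the way to sex steroids, read 153, 79.1, 171 and 215 at 22 °C and 34.4, 65.6, 13.4, 21.1 and 22.0 at 30 °C. No 30 °C library reached the lowest 22 °C library, the ratio of means was 4.93, and the difference was -2.38 ± 0.44 (SE; limma adjusted p = 0.00298).

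Cyp3a41a, a P450 of the CYP3A family of steroid and drug hydroxylases, read 309, 385, 750.4 and 257 against 194, 152, 15.8, 23.1 and 12.7. Its 30 °C libraries fell into a higher pair and 3 low ones, all below the 22 °C range, and the difference was -3.15 ± 0.64 (SE; limma adjusted p = 0.00975). Cyp3a44, of the same family, read 23.6, 26.5, 32.5 and 13.0 against 2.34, 5.23, 0, 0 and 0, at or near the 3-read level in every 30 °C library, with a difference of -3.69 ± 0.76 (SE; limma adjusted p = 0.0103). Its mean over the 36 libraries was 6.22, and without the 22 °C libraries at 0 h it lay below the filter of 5. Its test and its place among the 4 thus rest on the group where it was high. A1bg, a secreted immunoglobulin-domain protein, read 40.6, 38.6, 96.6 and 14.2 against 1.15, 5.07, 8.42, 8.17 and 0, with a difference of -3.28 ± 0.68 (SE; limma adjusted p = 0.0103).

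Without the 22 °C replicate 3 library, the highest for both genes, the adjusted p rose to 0.0618 for Cyp3a41a and 0.0796 for A1bg. Every 31-base stretch of the Cyp3a41a transcript end also occurs in Cyp3a41b, which read 24.6 to 120 at 22 °C and 1.11 to 24.7 at 30 °C and was not called (limma adjusted p = 0.285). The most abundant female-biased gene, Cyp2c69, read 2803 to 7881 and 2804 to 3525 and was not called (limma adjusted p = 0.557).

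Of 22 tested cholesterol synthesis genes, limma called 4 lower at 30 °C and none higher. Of the 22 differences 21 lay below 0, with a median of -0.69, and in 11 genes every 30 °C library lay below every 22 °C library. Over all tested genes 0.414% were called lower and 1.71% were separated in that direction. The called genes were Idi1, Sqle, Cyp51 and Msmo1, which act after the mevalonate steps.

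Idi1, the isomerase that makes dimethylallyl diphosphate, read 79.6, 105, 127 and 112 at 22 °C and 36.1, 20.7, 47.9, 38.0 and 48.3 at 30 °C. Sqle, squalene epoxidase, read 68.1, 96.0, 95.0 and 66.1 against 32.7, 11.7, 34.8, 32.3 and 41.1. The 30 °C replicate 2 library was the lowest for both, and no 30 °C library reached the 22 °C range. Their differences were -1.48 ± 0.32 and -1.47 ± 0.31 (SE; limma adjusted p = 0.0173 and 0.0139).

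Cyp51, lanosterol demethylase, read 43.5, 52.8, 65.2 and 63.0 against 31.2, 13.8, 28.2, 19.5 and 27.3. Msmo1, the sterol methyl oxidase that acts after it, read 293, 236, 305 and 414 against 112, 95.6, 104, 78.4 and 146. Both were separated in full. Msmo1 had the smallest p outside the Mup genes and their copies, at a ratio of means of 2.92 and a difference of -1.53 ± 0.25 (SE; limma adjusted p = 0.000525), and Cyp51 differed by -1.23 ± 0.26 (SE; limma adjusted p = 0.0103).

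Upstream of these, Hmgcs1, a cytosolic synthase early in the pathway, read 952, 1153, 1370.2 and 1743 against 636, 395, 786, 622 and 742, with a difference of -1.04 (limma adjusted p = 0.114). Hsd17b7, Fdft1, Nsdhl, Fdps and Dhcr7 were separated in the same direction without being called, at differences of -1.06, -0.79, -0.96, -0.80 and -0.60. Ggps1, which leads towards protein prenylation and not sterols, was the single member above 0, at 1.03 (limma adjusted p = 0.338). Lss and Acat2 lay close to 0, at -0.13 and -0.12.

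The count of 4 rested on few libraries. It became 1 without the 22 °C replicate 3 library, 2 without the 22 °C replicate 4 library, 2 without the 30 °C replicate 2 library and 1 in the fit of the 9 libraries alone, where Msmo1 kept its call, and the list's median stayed between -0.76 and -0.57 without any single library.

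Of 19 sterol regulation, uptake and export genes tested, 1 was called and the median difference was -0.02. Soat2, the acyltransferase that makes cholesteryl esters for lipoproteins, rose at 30 °C, at 6.39, 10.8, 7.39 and 14.3 against 30.8, 28.7, 33.2, 32.0 and 23.3. The libraries did not overlap, and the difference was 1.56 ± 0.31 (SE; limma adjusted p = 0.00836).

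Insig1, the sterol sensor that holds SREBP proteins back and is itself an SREBP target, read 1769, 1148, 1147 and 989 against 782, 773, 899, 822 and 671. It was separated but not called, at -0.65 (limma adjusted p = 0.43). Srebf2, which encodes the SREBP of sterol genes, differed by -0.55 and Srebf1, which encodes that of fatty acid genes, by 0.13, and neither was called. Neither fatty acid list had a gene called by limma. The medians were 0.08 over 19 lipogenesis genes and 0.01 over 36 fatty acid oxidation and ketogenesis genes, with 4 and 2 members at an unadjusted p below 0.05.

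**Figure D3:**
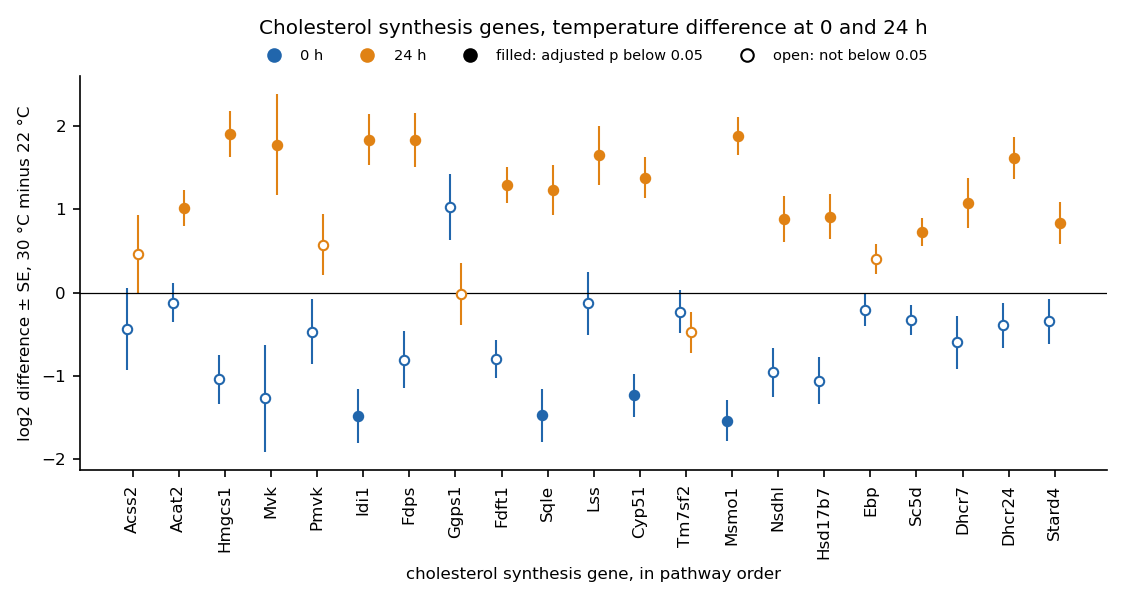
Log2 difference ± SE, 30 °C minus 22 °C, for 21 of the tested cholesterol synthesis genes in pathway order, at 0 h in blue and at 24 h after LPS in orange, with filled points for adjusted p below 0.05. At 0 h 20 of 21 points lie below 0 and 4 are filled, and at 24 h 19 lie above 0 and 16 are filled.

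The remaining 7 genes higher at 30 °C came from several functions. Serpina7, the thyroxine-binding globulin of plasma, read 20.9, 20.95, 7.63 and 14.2 at 22 °C and 52.9, 44.4, 28.6, 77.1 and 90.3 at 30 °C, a difference of 1.80 ± 0.37 (SE; limma adjusted p = 0.0103) that missed the threshold without the 22 °C replicate 3 library (adjusted p = 0.0796). Slc17a2, a transporter of the phosphate and organic anion family, read 123, 146, 135 and 101 against 209, 169, 267, 209 and 263. Nap1l1, a histone chaperone, read 24.3, 32.8, 29.4 and 32.5 against 61.3, 69.9, 96.1, 58.0 and 78.1. All 3 genes were separated, and the differences of the last pair were 0.81 and 1.25 (limma adjusted p = 0.00445 and 0.0137).

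Gadd45g, a growth arrest gene, read 3.30, 9.85, 7.95 and 7.59 against 8.22, 24.9, 30.1, 21.9 and 76.2, with 1 overlapping library at 30 °C and a difference of 1.78 ± 0.32 (SE; limma adjusted p = 0.00223). Rad51b, a homologous recombination gene, read 13.2, 10.7, 32.1 and 2.75 against 51.5, 46.8, 32.7, 57.9 and 45.1, a difference of 1.97 (limma adjusted p = 0.024). Slfn8 and Amd1, the latter an enzyme of polyamine synthesis, were at or near the 3-read level at 22 °C, at 0 to 2.53 and 0 to 9.21. At 30 °C they read 2.88 to 13.4 and 5.50 to 24.4, and their fitted differences of 2.39 and 2.89 depend on the added 1 (limma adjusted p = 0.0166 and 0.023).

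Among the other 16 lower genes was Oat, ornithine aminotransferase of the pericentral hepatocytes. It read 679.6, 457, 743 and 757 at 22 °C and 253, 411, 195, 161 and 168 at 30 °C, with no overlap and a difference of -1.53 ± 0.27 (SE; limma adjusted p = 0.00169). It was the single called gene of 16 pericentral genes, whose median was -0.49, and of 40 urea cycle and amino acid genes, whose median was -0.22. Glul, glutamine synthetase of the same cells, had means of 111 and 73.6. It was separated in the same direction but not called (limma adjusted p = 0.557). Ces2c, a carboxylesterase, read 80.2, 76.6, 132 and 134 against 21.2, 43.9, 24.2, 14.3 and 12.9, a difference of -2.22 ± 0.38 (SE; limma adjusted p = 0.00157).

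Slc22a7, the organic anion transporter OAT2, read 17.2, 26.5, 25.4 and 11.3 against 2.30, 5.07, 1.68, 2.34 and 6.27, and its difference of -2.26 had a limma adjusted p of 0.0173. Spg7, a mitochondrial inner membrane protease, read 52.2, 61.1, 40.3 and 58.7 against 25.5, 24.9, 24.6, 23.0 and 15.2. Bzw1, a translation regulator, read 70.2, 62.8, 81.3 and 73.7 against 49.2, 41.0, 45.4, 43.6 and 33.8. The last pair were separated in full and kept their calls without any single library, at differences of -1.20 and -0.75 (limma adjusted p = 0.00445 for both).

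Rpl10, a ribosomal protein gene, read 76.4, 31.7, 29.6 and 44.5 against 12.4, 3.64, 10.6, 12.2 and 19.6, a difference of -1.92. Wfdc21 read 197 to 316 against 85.3 to 201, Rab5if 179.7 to 235 against 69.9 to 125, S100a10 68.9 to 132 against 43.9 to 63.3, and Dnajb11, an endoplasmic reticulum co-chaperone, 34.5 to 109 against 13.1 to 39.0. Tuba1c read 27.8 to 60.4 against 11.4 to 29.7, Smim8 24.5 to 44.2 against 10.8 to 20.6, Arhgef26 17.7 to 51.4 against 3.67 to 27.9, and Tsku 12.8 to 16.5 against 4.60 to 8.42. Ublcp1 and Arl15 read at most 15.5 and 7.75 at 22 °C and were near the 3-read level at 30 °C. The differences of these 10 genes after Rpl10 lay between -2.08 and -0.96.

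Of the 42 called genes with a symbol, 20 kept their call without each library in turn and 22 lost it for at least 1. The adjusted p rose furthest for Arhgef26, to 0.192, for Rad51b, to 0.178, and for Smim8, to 0.169. Among the genes described here with all libraries, Slc22a7 lost its call without the 22 °C replicate 2 or 3 or the 30 °C replicate 3 library, Nap1l1 without the 22 °C replicate 1 library and Rpl10 without the 22 °C replicate 1 or 4 or the 30 °C replicate 2 library, at adjusted p up to 0.0781, 0.0571 and 0.121.

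**Figure D4:**
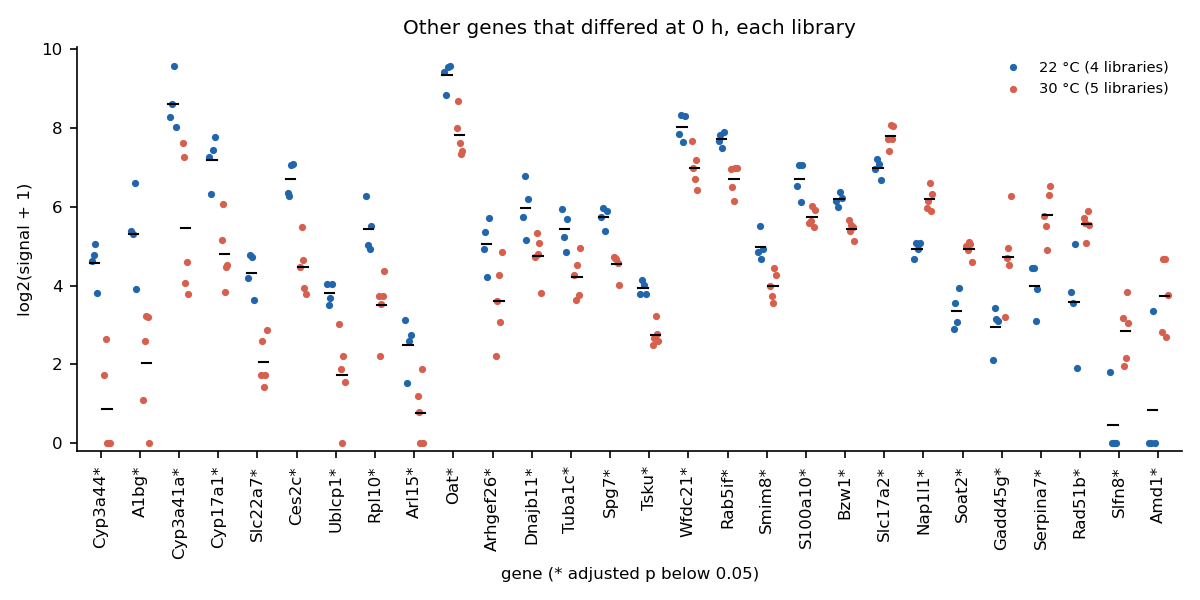
The 28 called genes outside the Mup and cholesterol synthesis groups, ordered by their difference, with 1 point per library on a log2(signal + 1) axis and the group mean as a bar. Oat and Cyp3a41a lie highest among the genes lower at 30 °C, and the 8 genes at the right end are higher at 30 °C, from Slc17a2 at 0.81 to Amd1 at 2.89.

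Several gene groups tied to temperature, hormones or fuel use had no member called by limma. The 5 cold-inducible RNA-binding protein genes had a median of -0.05. Cirbp read 11.5 to 20.5 at 22 °C and 6.79 to 14.2 at 30 °C, and Rbm3 read 49.3 to 77.3 and 37.9 to 94.7, both with overlapping libraries. The 20 heat shock and chaperone genes had a median of -0.21, and the 18 genes of the growth hormone and IGF1 axis one of 0.14, with Igf1 at -0.05. In that axis 12 genes lay above 0 and 6 below. Bcl6 was separated upwards, at 1.82, and Igfbp4 downwards, at -0.47, while Socs2 lay at 1.02 with overlapping libraries. Their limma adjusted p were 0.157, 0.183 and 0.157. In these 3 lists 1, 4 and 4 members had an unadjusted p below 0.05.

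Dio1, the liver deiodinase that is a classical target of thyroid hormone, read 16.8 to 26.6 at 22 °C and 3.08 to 15.1 at 30 °C. It was separated but not called, at -1.26 (limma adjusted p = 0.285), and Thrsp, another such target, differed by -0.13. Among fuel genes, Pck1 differed by -0.09, G6pc by 0.33 and Cpt1a by 0.17, and Igfbp1 read 35.7 to 122 against 67.3 to 264, a difference of 1.06 (limma adjusted p = 0.346). Fgf21 was at or near the 3-read level throughout, at 0 to 1.23 and 0 to 5.84.

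In bile acid synthesis and transport, limma called none of 24 genes and 2 had an unadjusted p below 0.05, while 19 lay below 0 and the median was -0.28. Cyp7a1, the hydroxylase that opens the classical bile acid pathway, read 48.9, 14.8, 37.4 and 54.8 against 19.0, 54.3, 37.4, 6.62 and 1.29, a spread within the 30 °C group that covers most of the 22 °C range. Cyp7b1 differed by -0.93 (limma adjusted p = 0.529), and Amacr, a racemase of the side-chain steps, read 203 to 262 against 149.9 to 193, separated but not called (limma adjusted p = 0.227).

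The 29 acute phase genes had a median of -0.09, with Saa1 at 214 to 304 and 158 to 556, and the 31 interferon response genes one of 0.17, and limma called no member of either at 0 h, with 4 and 3 at an unadjusted p below 0.05. Of 15 immediate early genes limma called none and 4 had an unadjusted p below 0.05, at a median of 0.48 that lay between 0.13 and 0.67 without single libraries. Egr1 read 15.4 to 109.5 at 22 °C and 45.8 to 178 at 30 °C. Alb, the main hepatocyte product, differed by 0.27 (limma adjusted p = 0.573).

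The same genes were then read in the libraries taken after LPS, none of which is in the 0 h groups. These libraries did enter the filter and the shared spread behind the 0 h calls. They are therefore not an independent check of those calls. The 10 called Mup genes all lay below 0 at 4, 12 and 24 h, with medians of -2.47, -3.90 and -2.80. Of them 4, 10 and 9 were called lower, where 0.184, 3.29 and 8.71% of all genes were. Mup14 differed by -1.70, -3.42 and -2.75 at these times. Mup-ps16 was near the 3-read level at 30 °C at 0 h, with a mean of 3.83, so its difference depends on the added 1. That difference went from -3.26 at 0 h to -0.34 at 24 h, a change of 2.92 ± 0.79 (SE; limma adjusted p = 0.0169). Mup-ps16 was the single Mup gene for which the change from 0 h passed the test. Over all genes, 0.0115% passed that test at 4 h, 0.276% at 12 h and 8.95% at 24 h.

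Cholesterol synthesis ran the other way at 24 h. The medians of the 22 genes were -0.19 at 4 h and -0.38 at 12 h, with 2 genes called lower at 12 h, and 1.05 at 24 h, with 16 called higher where 9.93% of all genes were. Msmo1 went from -1.53 at 0 h to 1.88 at 24 h, Idi1 from -1.48 to 1.83, Sqle from -1.47 to 1.23 and Cyp51 from -1.23 to 1.38. The change from 0 h to 24 h was tested as such and passed for all 4 and for 16 of the 22. The 4 were picked on their 0 h value, which also enters that change, so a part of its size is given by the choice.

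The 8 genes higher at 30 °C at 0 h had medians of 0.24, 0.21 and -0.33 at 4, 12 and 24 h, and 1 was called higher at 12 h, where 0.977% of all genes were. The change from 0 h to 24 h passed the test for 7 of them, with the same limit of their choice, and Rad51b was the single one called higher at 24 h, at 3.26. Among the female-biased genes, Cyp17a1 went from -2.38 to 1.09 and A1bg from -3.28 to 0.64 at 24 h, changes of 3.47 and 3.92 (limma adjusted p = 0.000298 and 0.00669). Slc22a7, Ces2c, Bzw1 and Arhgef26 were lower again at 24 h, at -2.87, -2.01, -0.99 and -1.17, and Tsku was lower at 4 and 24 h, at -1.33 and -2.18.

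**Figure D5:**
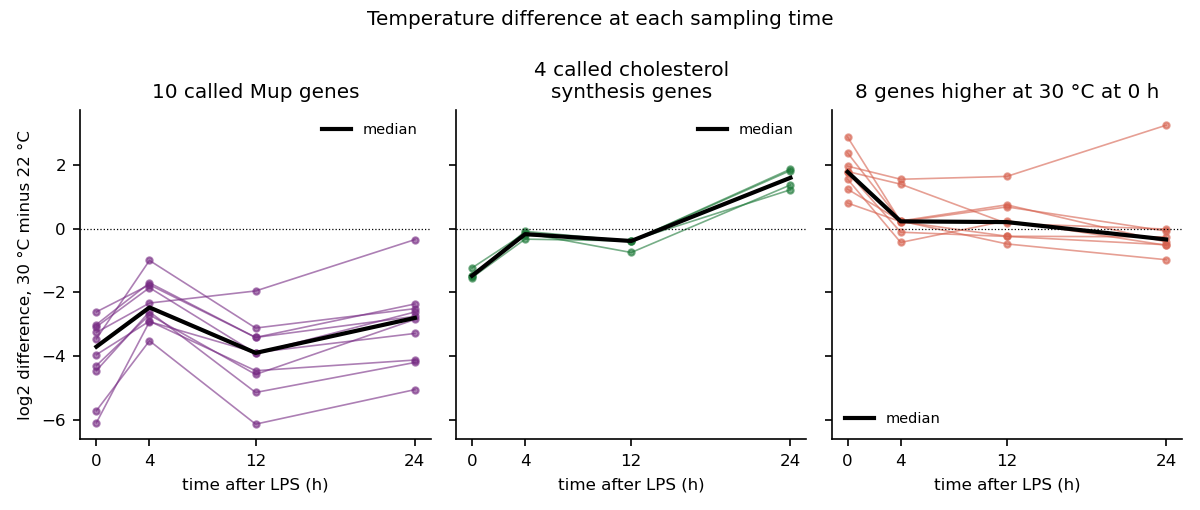
Log2 difference, 30 °C minus 22 °C, at 0, 4, 12 and 24 h after LPS for the 10 called Mup genes, the 4 called cholesterol synthesis genes and the 8 genes higher at 30 °C at 0 h. Thin lines are genes and the thick line is their median. The Mup lines stay below 0 throughout, and the cholesterol lines cross from a median of -1.48 at 0 h to 1.61 at 24 h.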

How the data were processed

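Liver RNA of 36 mice was read by a bulk form of CEL-Seq2, per the labels' protocols. Trimmomatic, kallisto and sleuth are named in the submitters' processing notes, with no version; the index, genome build and treatment of molecular barcodes are not recorded there or in the labels. The authors deposited 1 long table with a signal per gene and library, scaled reads per base, which is not a count, and TPM. From the signal, log2(signal + 1) of 8702 genes with a mean of at least 5 was fitted with limma 3.58.1 (R 4.3.3, trended eBayes) over 8 group means and all 36 libraries, two-sided, adjusted per contrast over all genes tested. The genes just inside the filter were 2310057M21Rik (5.0004) and Lrp3 (5.003), and just outside Tmcc2 (4.999) and Wwp2 (4.997). The script was tested on simulated data. All 42 called genes with a symbol are named; some uncalled genes of the lists are counted but not reported singly here. The members and the gene lists were chosen with earlier results of these data known; lists are given by counts and medians, with no test. Of 34829 genes 34406 had a symbol. Same-numbered libraries did not deviate together at 0 h (r from -0.041 to 0.059).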

Additional observations from a re-analysis of the deposited data

Results flagged for a closer look

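In 122 pairs of a described gene and a temperature group, 5 single libraries lay far from the rest of their group at 0 h, and chance flags about 1 in 20 such groups. Spg7 read 15.2 in the 30 °C replicate 5 library against 23.0 to 25.5 in the other 4. Slfn8 read 2.53 in the 22 °C replicate 1 library and 0 in the others, and Amd1 read 9.21 in the 22 °C replicate 3 library and 0 in the others. Fgf21 read 5.84 in the 30 °C replicate 4 library against 0 to 1.68, and Cyp7b1 read 3.37 in the 30 °C replicate 3 library, which stands apart as a whole, against 18.8 to 24.2.

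The temperature difference of called genes was also tested for a change from 0 h to a later time, with limma adjusted over all genes. The change passed for 3 of them at 12 h and 22 at 24 h, where 0.276 and 8.95% of all genes did. All of these genes were picked on their 0 h difference, which enters the change. At 12 h the changes were 3.48 for Ublcp1, -1.04 for Slc17a2 and -2.02 for Gadd45g.

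At 24 h the cholesterol synthesis genes changed by 3.41 (Msmo1), 3.32 (Idi1), 2.70 (Sqle) and 2.61 (Cyp51), so that all 4 were higher at 30 °C by then. A1bg, Cyp17a1 and Cyp3a41a changed by 3.92, 3.47 and 2.91, and Mup-ps16 by 2.92. Among the other genes lower at 0 h the changes were 2.28 for Oat, 2.25 for Ublcp1, 1.96 for Spg7, 1.76 for Rab5if, 1.72 for S100a10, 1.71 for Smim8 and 1.46 for Tuba1c. Among the genes higher at 0 h they were -3.36 for Slfn8, -2.96 for Amd1, -2.28 for Gadd45g, -2.08 for Soat2, -1.81 for Serpina7, -1.66 for Nap1l1 and -1.06 for Slc17a2.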

How the results depend on the processing

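Over 21 other settings, 10 of the 44 genes kept their call in every one. Fitted on the 0 h libraries alone, limma called 13 genes (1 higher, 12 lower) and 1 cholesterol synthesis gene. A fit with the replicate number as a block called 29 genes (5 higher) and 1 cholesterol synthesis gene. No label pairs the libraries by number. Same-numbered libraries did not deviate together at 0 h, but so few libraries cannot show whether the numbers mark a pairing. Without each library in turn the count ran from 36 to 51, the higher genes from 6 to 18, with 18 and 17 without the 22 °C replicate 1 and 2 libraries, and the cholesterol synthesis genes from 1 to 5. Raising the filter to a mean of 20 left 170 of 274 genes with separated libraries, with fewer genes tested. The count of called Mup genes lay between 7 and 12 throughout. Without the 22 °C replicate 1 and 2 libraries, the share of lower calls was 64.7 and 66.0%.

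Genes that were not called and lay near 0 changed sign. With the block, Thrsp was at 0.056. Without single libraries the difference ran from -0.16 to 0.081 for Igf1, -0.12 to 0.31 for Srebf1, -0.021 to 0.31 for Cpt1a, -0.26 to 0.081 for Pck1, -0.20 to 0.49 for Fgf21, -0.30 to 0.034 for Rbm3 and -0.45 to 0.23 for Thrsp. The cause of these changes was not tested. At 557000 to 985000 reads a library, genes below 3 reads cannot be compared.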

Other observations

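Among 17 glucocorticoid-responsive genes Gadd45g was the single called member, where 0.506% of all tested genes were called. The list's median of 0.01 hid members on both sides. Of the 17, 8 had an unadjusted p below 0.05, against 861 of all 8702 genes. Tdo2, the first enzyme of tryptophan breakdown, read 372 to 610 at 22 °C and 212 to 369 at 30 °C, and Mt2, a metallothionein, read 217 to 275 and 93.5 to 211. Both were separated but not called, at -0.61 and -0.65 (limma adjusted p = 0.268 and 0.26). Dusp1, a phosphatase of the stress kinases, leaned the other way at 1.21 (limma adjusted p = 0.235), and its libraries overlapped.

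In amino acid metabolism, Bhmt, which passes a methyl group from betaine to homocysteine, read 3263, 2473, 4268 and 5373 at 22 °C and 1417, 2055, 1684, 1511 and 1829.96 at 30 °C. No 30 °C library reached the 22 °C range, and the difference was -1.13 ± 0.40 (SE; limma adjusted p = 0.285). Nfil3, a clock-linked repressor, and the glutathione enzymes Gpx1 and Gstm1, chosen after their values were seen, had means of 8.13 and 19.5, 713 and 461, and 4349.97 and 6922 at 22 and 30 °C, with limma adjusted p of 0.0656, 0.109 and 0.317.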
